A study of Mus musculus with 8 samples.

Results

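Of 28104 genes that the array names, 49 act in the folding, glycosylation, quality control and export of secreted and membrane proteins at the endoplasmic reticulum (ER), and these are described here. They were taken by gene name, with the older name Armet accepted for Manf, and the list was drawn up with earlier results of these data known. The 49 fall into 4 sensors and regulators, 11 chaperones and cochaperones, 8 enzymes of disulfide formation, 9 genes of degradation, 9 of the translocon and signal peptidase, 4 subunits of the oligosaccharyltransferase and 4 genes of transport out of the ER. All 49 were measured in mothers and in fetuses, each from the same probe in both.

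The livers came from C57BL/6J mice in 2 diet groups. FR mothers received 50% of the chow eaten by controls from gestation day 10 to 17, and control mothers ate freely. Livers of the mothers and of their male fetuses were taken at caesarean section on day 18. Per the labels, 6 mothers per diet were used and 2 fetuses came from each mother. RNA was pooled within a diet, and each array held an FR pool and a control pool of the same kind, hybridised once in each dye orientation. Mothers gave 1 pool pair (pools of 6 animals, 2 arrays), and fetuses gave 3, of which 1 had pools of 6 (2 arrays) and 2 had pools of 3 (4 arrays). With 6 mothers per diet and 2 fetuses from each, fetal pools of 6, 3 and 3 cannot all come from separate litters. The labels do not say which litters are shared. The 3 fetal pool pairs are therefore not fully independent, and the p-values cover the spread between these pools only. No FR pool of mothers was repeated, so maternal ratios have no replicate error, and no statement here reaches to mothers beyond this pool. The labels name no genetic change in any group.

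Liver cells, above all hepatocytes, load most of the proteins of blood plasma into the ER. A nascent chain enters through the SEC61 translocon, loses its signal peptide, receives N-glycans from the oligosaccharyltransferase and is folded by the HSP70-type chaperone BiP (Hspa5), the HSP90-type chaperone GRP94 (Hsp90b1), the lectins calnexin and calreticulin and the protein disulfide isomerases. Folded cargo leaves in COPII vesicles, whereas chains that fail are drawn back out through the SEL1L and synoviolin complex and the derlins and are degraded in the cytosol. When unfolded chains accumulate, the sensors IRE1 (Ern1), ATF6 and PERK act. IRE1 splices Xbp1 mRNA, and the transcription factors XBP1 and ATF6 raise chaperone and degradation genes through short promoter elements.

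These elements were read in the 300 bases around the annotated starts of the genes (250 before and 50 after, RefSeq, build GRCm38.p6), which were at hand for 41 of the 49. The ER stress response element (ERSE) was searched on both strands as CCAAT, 9 free bases and CCACG. It was found in 10 of the 41 (24.4%), against 37 of 27025 genes with a window (0.14%). ERSE-II was searched as ATTGG, 1 free base and CCACG and was found in 2 of the 41 (4.88%), against 12 of all genes (0.04%). The unfolded protein response element (UPRE), searched as TGACGTGG, whose end is the reverse complement of CCACG, was found in 1 (2.44%), against 193 of all genes (0.71%). Together 13 of 41 (31.7%) held a match, against 239 of all genes (0.88%). The matches are shown because XBP1 and ATF6 are known to act through these elements. Each is read 5′ to 3′ with its fixed bases in capitals.
Calr, ERSE, chr8:84847075-84847093, plus strand: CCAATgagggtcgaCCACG
Canx, ERSE, chr11:50325800-50325818, minus strand: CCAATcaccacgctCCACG
Creld2, ERSE, chr15:88819520-88819538, minus strand: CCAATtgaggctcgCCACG
Derl3, ERSE, chr10:75893242-75893260, minus strand: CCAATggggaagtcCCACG
Dnajb11, ERSE-II, chr16:22857852-22857862, plus strand: ATTGGcCCACG
Dnajc3, ERSE, chr14:118937827-118937845, plus strand: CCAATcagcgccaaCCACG
Ero1lb, ERSE, chr13:12565682-12565700, minus strand: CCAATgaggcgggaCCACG
Herpud1, ERSE-II, chr8:94386377-94386387, plus strand: ATTGGgCCACG
Hsp90b1, ERSE, chr10:86705638-86705656, minus strand: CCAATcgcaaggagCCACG
Hsp90b1, ERSE, chr10:86705533-86705551, plus strand: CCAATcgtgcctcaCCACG
Hspa5, ERSE, chr2:34772025-34772043, plus strand: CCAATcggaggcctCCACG
Pdia6, ERSE, chr12:17266491-17266509, plus strand: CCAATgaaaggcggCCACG
Sec24d, UPRE, chr3:123267470-123267477, plus strand: TGACGTGG
Syvn1, ERSE, chr19:6046532-6046550, plus strand: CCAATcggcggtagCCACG
The complete windows of the BiP gene and of Creld2, which had the lowest maternal ratio of the set, follow. Capitals mark the ERSE match, which in the Creld2 window lies on the opposite strand and so reads as its reverse complement.
Hspa5, chr2:34771840-34772139, plus strand: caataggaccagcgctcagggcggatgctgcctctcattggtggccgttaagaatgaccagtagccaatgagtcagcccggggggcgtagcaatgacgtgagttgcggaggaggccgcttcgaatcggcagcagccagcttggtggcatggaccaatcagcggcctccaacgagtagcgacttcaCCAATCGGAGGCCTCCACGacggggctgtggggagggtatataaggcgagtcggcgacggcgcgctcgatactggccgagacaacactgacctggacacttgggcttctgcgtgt
Creld2, chr15:88819396-88819695, plus strand: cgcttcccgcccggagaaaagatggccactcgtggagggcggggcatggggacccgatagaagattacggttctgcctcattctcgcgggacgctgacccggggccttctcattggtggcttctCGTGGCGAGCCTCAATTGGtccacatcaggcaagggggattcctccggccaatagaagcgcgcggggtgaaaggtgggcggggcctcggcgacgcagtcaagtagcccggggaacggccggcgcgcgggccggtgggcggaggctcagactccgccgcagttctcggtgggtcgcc
The Hspa5 element ended 46 bases before the gene start and the Creld2 element 107 bases before it. A match is a string of letters and not a shown binding site, and a window without one says nothing about the factors.

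In fetal liver 40 of the 49 genes had a mean ratio below 0, that is, a lower level in FR than in control pools. The measure is the log2 ratio of FR over control, averaged over both dye orientations of a pool pair. Of the 49 genes, 19 fell and 4 rose (limma over the 3 fetal pool pairs, Benjamini-Hochberg adjusted p under 0.05 over 21105 genes), and 26 did not pass. Over all genes, 14.2% fell and 11.3% rose. The median ratio was -0.17 for the set and 0.01 for all genes tested. The median was alike in each fetal pool pair, at -0.19 in the pools of 6, -0.17 in pools of 3 group 1 and -0.18 in group 2, and 33 of the 49 lay below 0 in all 3 pairs. The calls depend on the pools of 6: without that pair no member passed, the lowest adjusted p being 0.0543, while 20 were lower and 4 higher at an unadjusted p under 0.05, and all 19 called lower and all 4 called higher kept their side of 0. No member passed either when the arrays were scaled to the same spread (20 lower and 7 higher at an unadjusted p under 0.05). With the slide as a block 13 fell and 2 rose. When spots that the scanner software marked as non-uniform were left out, 21 members were still measured, some from another, dimmer probe. Of these 8 fell and 2 rose. Among them, 5 of 6 genes called lower before were still lower, and 2 of 4 called higher were still higher. The other 13 members called lower were not measured.

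**Figure D1:**
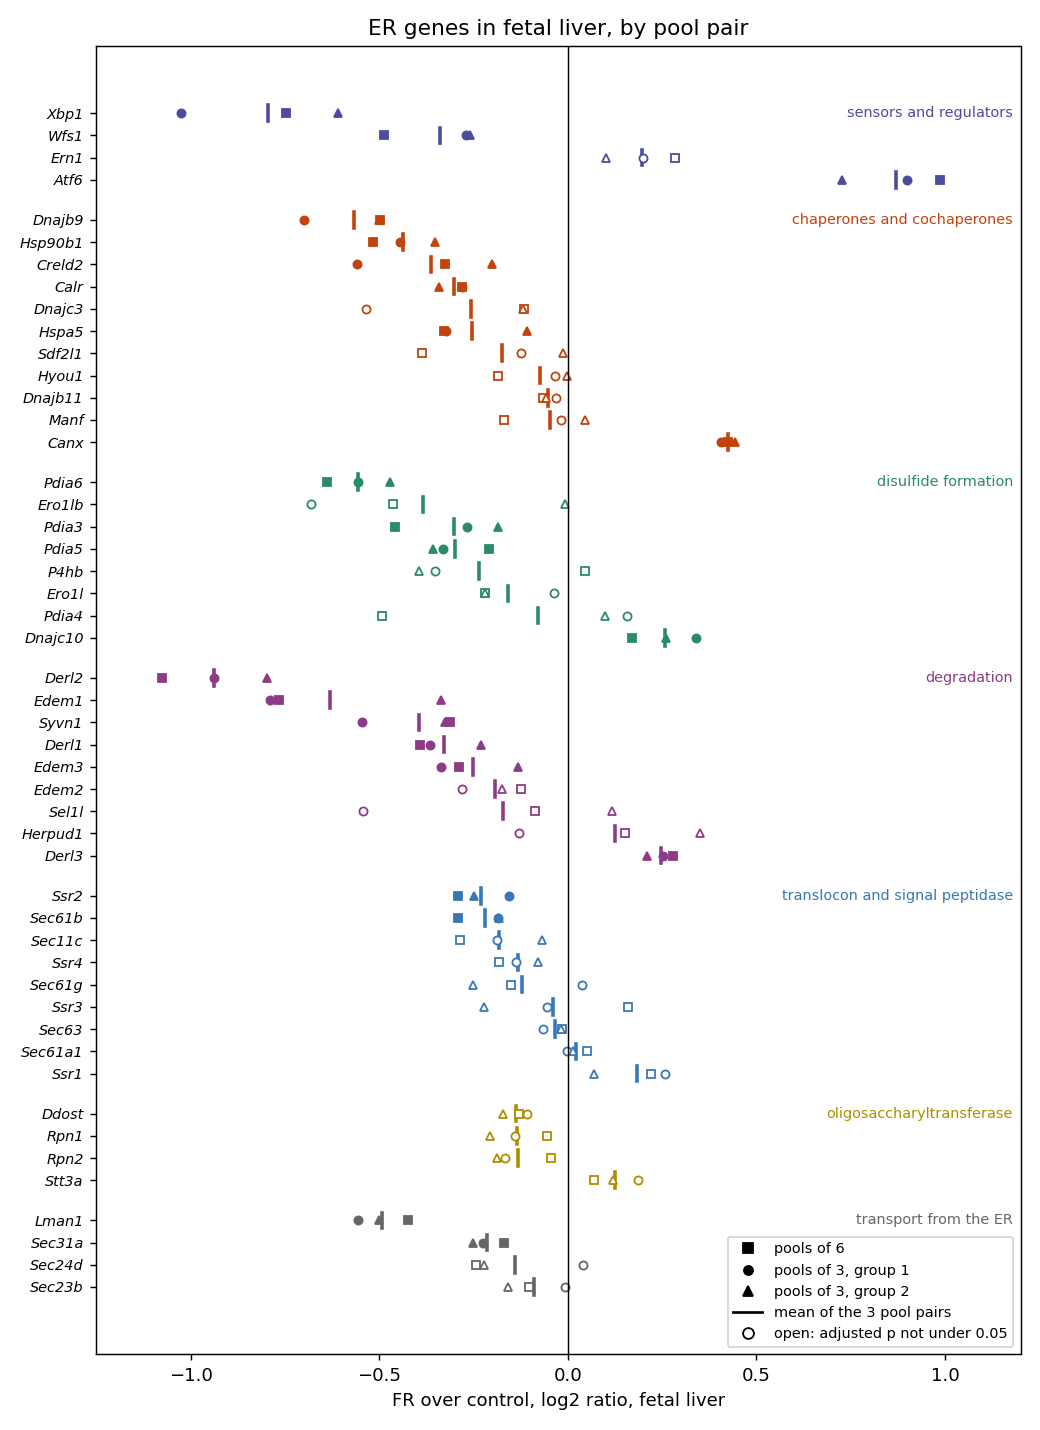
Log2 ratio of FR over control in fetal liver for the 49 ER genes, by role. Each symbol is 1 pool pair, the bar is the mean of 3, and filled symbols mark an adjusted p under 0.05. Derl2 and Xbp1 lie farthest left and Atf6 farthest right, and the oligosaccharyltransferase has no filled symbol.

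Marker lists of cell types were read in the same fetal pools and did not all move one way. Over all genes, 14.2% fell and 11.3% rose. In bulk liver, fewer cells of a type and less RNA per cell cannot be told apart. Of 11 hepatocyte markers, which are secreted proteins and the transcription factor Hnf4a, 6 fell and the other 5 were not called. Ttr (transthyretin) fell by 0.97 and Alb (albumin) by 0.45 on the log2 scale. Of the 11, 8 lay below 0, whereas Apoa1 (0.31), Hnf4a (0.21) and Apob (0.06) lay above it. Their summed level was 783115 to 919229 intensity units in FR fetal pools, against 995894 to 1146313 in control pools. Of 12 B lineage markers 10 fell, and their summed level was 11331 to 18191 in FR pools, against 30532 to 35720 in control pools. Of 6 plasma cell markers 2 fell, with sums of 1922 to 2295 in FR pools and 2467 to 3147 in control pools. Of 11 granulocyte markers 8 fell, with sums of 259223 to 284489 in FR pools and 395089 to 410908 in control pools. Exocrine pancreas markers had 2 of 9 higher, with overlapping sums of 5930 to 10941 in FR pools and 3941 to 6290 in control pools. Of 8 Kupffer and monocyte markers 4 fell and 1 rose, with sums of 54940 to 57091 in FR pools and 50131 to 54262 in control pools. Of 8 stellate and mesenchymal markers 2 fell, with sums of 50196 to 63100 in FR pools and 54260 to 61523 in control pools. Of 9 erythroid markers 1 fell and 1 rose, with sums of 437336 to 565367 in FR pools and 322761 to 467803 in control pools. No marker of these lists was below background on every fetal array. The part of these cell types in the ER gene ratios was not tested.

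Among the sensors and regulators, Xbp1 fell and Atf6 rose. Xbp1, the transcription factor downstream of IRE1, had log2 ratios of -0.75 in the pools of 6, -1.03 in pools of 3 group 1 and -0.61 in group 2. All 6 fetal arrays were below 0, and the mean was -0.79 ± 0.21 (SD, n = 3), or 1.73-fold lower, with an adjusted p of 0.00798. Atf6, the membrane-bound sensor that is cut in the Golgi apparatus to release a transcription factor, had 0.99 in the pools of 6, 0.90 in group 1 and 0.73 in group 2. All 6 arrays were above 0 and the mean was 0.87 ± 0.13 (n = 3, 1.83-fold, adjusted p = 0.00499). Its second probe gave 0.78. Wfs1, the ER membrane protein wolframin, had -0.49, -0.27 and -0.26 in the same order of pool pairs and fell (mean -0.34, adjusted p = 0.0212). Ern1, which encodes IRE1, had 0.29, 0.20 and 0.10 and did not pass.

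Of the 11 chaperones and cochaperones, 5 fell and 1 rose, against 14.2% lower and 11.3% higher over all genes. Dnajb9 (ERdj4, a cochaperone of BiP) had -0.50 in the pools of 6, -0.70 in pools of 3 group 1 and -0.50 in group 2, a mean of -0.57 ± 0.12 (adjusted p = 0.00752). Hsp90b1 had -0.52, -0.45 and -0.35 in that order (mean -0.44, adjusted p = 0.00886). Both were below 0 on all 6 arrays. Calr, the soluble lectin chaperone, had -0.28, -0.28 and -0.34 (mean -0.30, adjusted p = 0.0126), the narrowest spread of the falling chaperones. Creld2, an ER stress-inducible protein that can be secreted, had -0.33, -0.56 and -0.20 (mean -0.36, adjusted p = 0.0311). Hspa5 itself moved little. It had -0.33, -0.32 and -0.11, a mean of -0.25 ± 0.13 or 1.19-fold lower (adjusted p = 0.0416), and 5 of 6 arrays were below 0. Canx, the membrane-bound partner of calreticulin, had 0.42, 0.41 and 0.44 and rose (mean 0.42, adjusted p = 0.00733), but its 2 other probes, which lie in the same gene on chromosome 11, gave -0.50 and -0.28. Hyou1, Manf, Dnajb11, Sdf2l1 and Dnajc3 did not pass, with means between -0.26 and -0.05.

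Of the 8 disulfide genes, 3 fell and 1 rose, against the same 14.2% and 11.3% of all genes. Pdia6, an isomerase that also tunes IRE1, had -0.64 in the pools of 6, -0.56 in pools of 3 group 1 and -0.47 in group 2, with all 6 arrays below 0 (mean -0.56 ± 0.08, adjusted p = 0.00659). Its 4 probes were all below 0. Pdia5 had -0.21, -0.33 and -0.36 (mean -0.30, adjusted p = 0.0178). Pdia3, the isomerase that works with calnexin and calreticulin, had -0.46, -0.27 and -0.18 (mean -0.30, adjusted p = 0.0316), but it read lower only with FR in Cy5: the ratios were -0.95, -0.55 and -0.44 in that orientation and 0.04, 0.01 and 0.08 in the other. Dnajc10 (ERdj5), a reductase that opens disulfides before degradation, had 0.17, 0.34 and 0.26 (mean 0.26, adjusted p = 0.0263), and its 4 probes lay on both sides of 0. The oxidases Ero1lb and Ero1l recharge the isomerases. Ero1lb had -0.46, -0.68 and -0.01 (mean -0.38) and Ero1l a mean of -0.16, and neither passed, nor did P4hb and Pdia4. Pdia4 differed between slides, with -0.49 in the pools of 6 and 0.16 and 0.10 in the pools of 3.

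The degradation group held the lowest ratio of the set, with 5 of 9 lower and 1 higher (14.2% and 11.3% over all genes). Derl2, a derlin of the retrotranslocation complex, had -1.08 in the pools of 6, -0.94 in pools of 3 group 1 and -0.80 in group 2. All 6 arrays were below 0, and the mean was -0.94 ± 0.14 (1.92-fold lower, adjusted p = 0.00491). Edem1, a mannosidase-like protein that marks glycoproteins for disposal, had -0.77, -0.79 and -0.34 (mean -0.63 ± 0.26, adjusted p = 0.0155). Syvn1, the ubiquitin ligase synoviolin, had -0.31, -0.54 and -0.33 (mean -0.40, adjusted p = 0.0152). Its second probe, far dimmer with a mean log2 intensity of 6.88 against 13.5, gave a mean of -0.0004. Derl1 had -0.39, -0.37 and -0.23 (mean -0.33, adjusted p = 0.015), and Edem3 had -0.29, -0.34 and -0.13 (mean -0.25, adjusted p = 0.0351). Edem3 depended on the dye, with -0.57, -0.45 and -0.25 with FR in Cy3 and -0.01, -0.23 and -0.01 with FR in Cy5. Derl3, the derlin most tied to professional secretory cells, went the other way, with 0.28, 0.25 and 0.21 (mean 0.25, adjusted p = 0.0193). Edem2, Sel1l and Herpud1 did not pass. Sel1l had -0.09, -0.54 and 0.12 and Herpud1 0.15, -0.13 and 0.35, so both crossed 0 between pool pairs. Another, dimmer Sel1l probe gave 0.94, 0.73 and 0.76 in the same pairs, and the dimmest gave a mean of 0.03. The fetal direction of Sel1l is therefore not settled.

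The entry and glycosylation machinery had mean ratios between -0.23 and 0.18. Of 9 translocon and signal peptidase genes 2 fell, against 14.2% of all genes. Differences in these counts between roles were not tested. Ssr2, a subunit of the translocon-associated TRAP complex, had -0.29, -0.16 and -0.25 (mean -0.23, adjusted p = 0.0295). Sec61b, a small subunit of the SEC61 channel, had -0.29, -0.19 and -0.18 (mean -0.22, adjusted p = 0.0311). The channel-forming subunit Sec61a1 had 0.05, -0.00 and 0.01 and Sec63, which couples the channel to BiP, -0.02, -0.07 and -0.02. Sec11c, a signal peptidase subunit, had -0.29, -0.19 and -0.07 (mean -0.18) and the TRAP subunit Ssr4 -0.18, -0.14 and -0.08 (mean -0.13), and neither passed. Ssr1, of the same complex, had 0.22, 0.26 and 0.07 (mean 0.18), did not pass and had 5 probes on both sides of 0. None of the 4 oligosaccharyltransferase subunits passed in the limma fit, although 3 were lower and 1 higher at an unadjusted p under 0.05. Ddost had -0.13, -0.11 and -0.17 in the 3 pairs, Rpn1 -0.06, -0.14 and -0.21, and Rpn2 -0.05, -0.17 and -0.19. The catalytic subunit Stt3a had 0.07, 0.19 and 0.12. Stt3a's 2 other probes gave -0.77 and -0.62, so its direction is not settled. Ddost, Rpn1 and Stt3a each read on opposite sides of 0 in the 2 dye orientations of every fetal pair.

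Of the 4 transport genes, Lman1 and Sec31a fell, against 14.2% of all genes. Lman1 (ERGIC-53), a lectin that carries glycoproteins, coagulation factors among them, out of the ER, had -0.42, -0.56 and -0.50 in the pools of 6, pools of 3 group 1 and group 2 (mean -0.49 ± 0.07, adjusted p = 0.00708). Sec31a, of the outer COPII coat, had -0.17, -0.22 and -0.25 (mean -0.21, adjusted p = 0.0284). The inner coat genes did not pass: Sec24d had -0.24, 0.04 and -0.22 and Sec23b -0.10, -0.01 and -0.16.

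Several probes of the same gene were at hand for 25 members. For 16 of them all probes lay on one side of 0, and 10 of these 16 were called. For 9 the probes lay on both sides, among them the called genes Canx and Dnajc10. The 2 Hsp90b1 probes gave -0.44 and -0.68, the 2 Calr probes -0.30 and -0.53, and the 2 Lman1 probes -0.49 and -0.27. Edem1 and Dnajb9 had 3 probes each, all below 0 and with the brightest probe lowest.

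**Figure D2:**
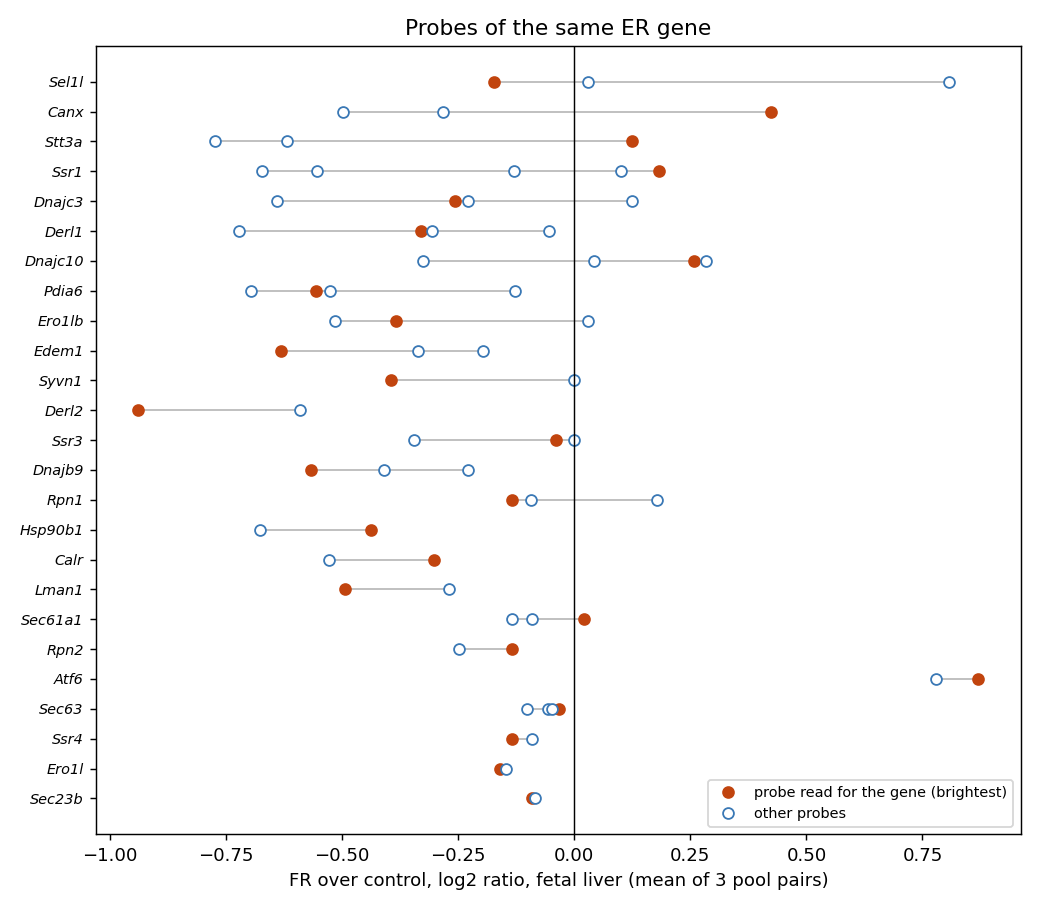
Mean fetal log2 ratio of FR over control for every passing probe of the 25 ER genes with several probes. The filled symbol is the probe read for the gene, the open ones are its other probes, and genes are ordered by the gap between probes, with Sel1l, Canx and Stt3a at the top and on both sides of 0.

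Neighbouring genes of the pathway were counted from lists of other family members, to be read against 14.2% lower and 11.3% higher over all genes. Of 20 other folding factors 9 fell and 2 rose, and of 20 other calnexin cycle and degradation factors 8 fell and 4 rose. Selenok, a selenoprotein that binds derlins, had -0.95, -0.92 and -0.82 in the 3 pairs and fell (mean -0.90, adjusted p = 0.00473). Marchf6, an ER ubiquitin ligase, rose (mean 0.63, adjusted p = 0.0117). Of 21 other targeting, translocation and glycosylation genes 6 fell and 2 rose, among them Stt3b, the second catalytic subunit, with a mean of -0.56 (adjusted p = 0.00813). Of 27 other genes of COPII, COPI and cargo receptors 9 fell and the other 18 were not called. Of 11 other transducers and ER-bound factors of the stress response 2 fell. Mcfd2, the partner of Lman1 in coagulation factor export, had a mean of -0.54 (adjusted p = 0.0339).

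In mothers few of the 49 genes passed a rule of size. Only genes past 1.5-fold on both arrays were counted, with no test. Of the 49, 4 were lower and 1 was higher, against 3.88% of 19516 genes lower and 3% higher. The median was -0.06, against 0.00 over all genes, and both arrays were below 0 for 19 members and above 0 for 12. Creld2 had -1.41 with FR in Cy5 and -1.30 with FR in Cy3. Edem1 had -0.97 and -0.98, Syvn1 -0.95 and -0.72, and Hspa5 -0.59 and -0.84, each with FR in Cy5 first. Herpud1, a membrane protein that gathers the degradation complex, had 1.38 and 1.03. Creld2, Hspa5 and Herpud1 rest on 1 probe each. The 2 other Edem1 probes gave 0.15 and -0.31, and the second, far dimmer Syvn1 probe gave -0.0045.

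In mothers, 3.88% of all genes were lower past the same fold and 3% were higher. Among marker lists, 3 of 8 stellate, 2 of 8 Kupffer and 3 of 7 erythroid markers were lower, and 1 erythroid marker was higher (0.88). Their summed levels in the FR and control pools were 35872 and 39015 for stellate, 23887 and 33957 for Kupffer and 41463 and 76803 for erythroid markers. Their part in the maternal ratios was not tested.

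The maternal count depended on the processing. None of the 49 passed 1.5-fold on both arrays without loess, 2 passed with the scanner software's processed signals, and 1 passed when non-uniform spots were left out. The means of Creld2, Hspa5 and Herpud1 changed little between the first 2 of these and the main setting: Creld2 had -1.27 without loess and -1.33 from processed signals, Hspa5 -0.61 and -0.72, and Herpud1 1.29 and 1.26. On slide 1, the slide of the mothers and the fetal pools of 6, 25 of the members were marked non-uniform on all 4 arrays, and on slide 2 none was.

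**Figure D3:**
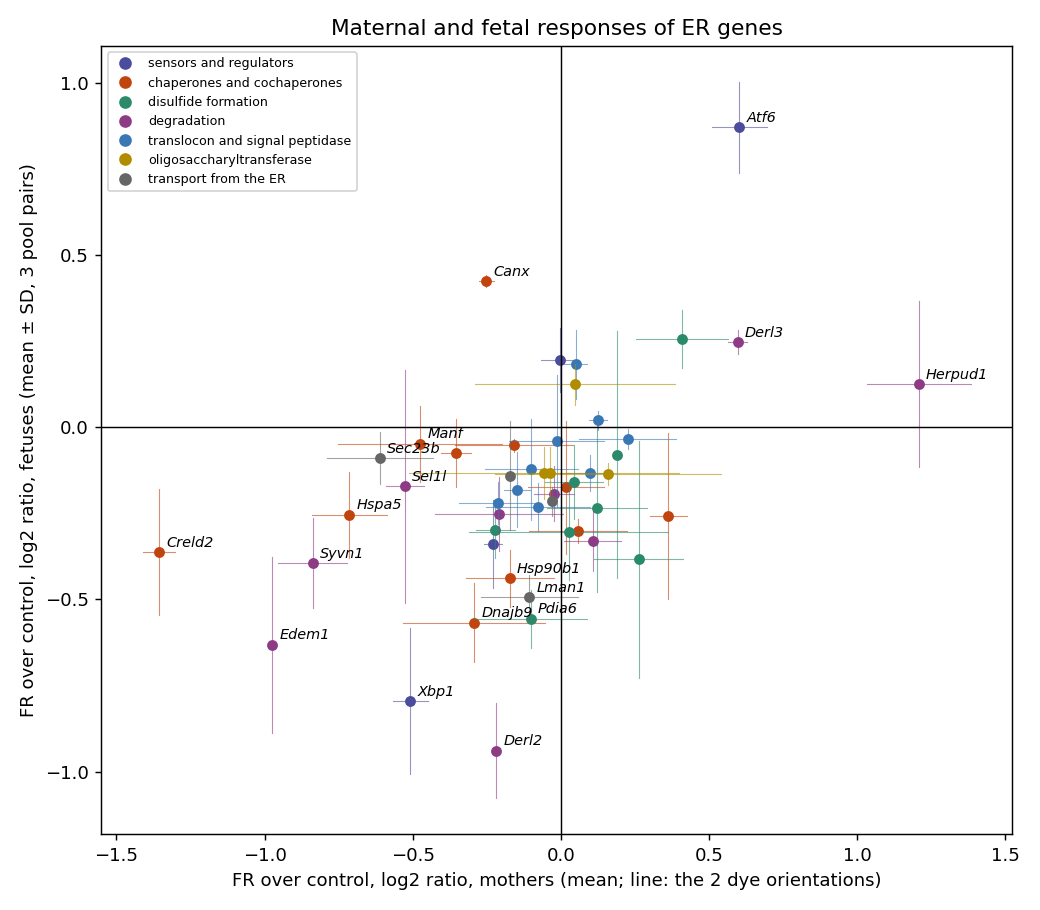
Log2 ratio of FR over control in mothers (x axis, mean of 2 arrays, line between the 2 dye orientations) and in fetuses (y axis, mean ± SD of 3 pool pairs) for the 49 ER genes, coloured by role. Creld2 is farthest left, Herpud1 farthest right, Derl2 lowest and Atf6 highest.

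The maternal and fetal ratios were then compared gene by gene. The lone maternal pair is assumed to vary like the fetal pairs, so the intervals and p-values hold no maternal spread. Mothers and fetuses were treated as unrelated, although the fetuses came from these mothers. Of the 49, 2 differed (limma on the 4 pool pairs, adjusted p under 0.05), both lower in mothers, against 2.11% of 18980 genes lower and 2.02% higher. Creld2 had -1.36 in mothers and -0.36 ± 0.18 (SD, n = 3) in fetuses, a difference of -0.99 ± 0.41 (95% interval, adjusted p = 0.0429). Canx had -0.25 in mothers and 0.42 ± 0.02 in fetuses, a difference of -0.68 ± 0.22 (adjusted p = 0.029). On slide 1 alone the differences were -1.03 for Creld2 and -0.68 for Canx. Averaged over its 3 probes, Canx differed by -0.07 (adjusted p = 0.755). With the slide as a block neither passed (adjusted p = 0.255 for Creld2 and 0.229 for Canx, and 11 members at an unadjusted p under 0.05). Without the fetal pools of 6, neither passed (adjusted p = 0.169 for Creld2 and 0.142 for Canx), and 15 members had an unadjusted p under 0.05. Herpud1, with 1.21 in mothers and 0.12 ± 0.24 in fetuses, differed by 1.08 ± 0.50 and missed the threshold (adjusted p = 0.0545). Derl2 had -0.22 in mothers and -0.94 in fetuses, a difference of 0.72 ± 0.34 that did not pass either. Xbp1 had -0.51 and Atf6 0.60 in mothers, and neither difference from the fetuses passed.

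By role, the disulfide group had a median of 0.08 in mothers and -0.27 in fetuses, the chaperones -0.25 in mothers and -0.25 in fetuses, and the degradation genes -0.21 in mothers and -0.25 in fetuses. The translocon group had -0.01 in mothers and -0.12 in fetuses. These medians are descriptions of the lists.

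The PERK and ATF4 arm of the ER stress response, of which no gene is a member, was also read. Of its 14 measured genes 2 fell and 3 rose in fetuses, and 4 were higher in mothers, past 1.5-fold on both arrays. Over all genes, 14.2% fell and 11.3% rose in fetuses, and 3% were higher in mothers. Trib3, a pseudokinase target of this arm, had 0.68, 0.79 and 0.88 in the 3 fetal pairs and 3.04 in mothers. Cebpb had 0.29 as its fetal mean and 1.91 in mothers. The other 2 past the fold in mothers, named after their values were seen, were Chac1 at 1.76 and Asns at 1.06. The difference between mothers and fetuses was called for these 4 and for none of the other 10 genes of the list. Since the 4 were singled out for their maternal size, this is no independent support. Atf4 itself had a fetal mean of -0.23 and 0.13 in mothers, and Nupr1 fell in fetuses (mean -1.27, adjusted p = 0.00468) and had -0.80 in mothers. On both maternal arrays 7 of the 14 genes lay above 0 and 5 below. The 5 were Nupr1, Atf5 (-0.68), Ddit3 (-0.47), Atf3 (-0.37) and Eif2ak3, which encodes PERK (-0.19). None of these was lower past 1.5-fold on both arrays, so the arm did not move one way in mothers.

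Without food restriction, maternal and fetal livers already differed in this set. The control channels were compared as log2 levels of each gene after normalization across arrays (limma, 1 maternal and 3 fetal control pools), so the lone maternal pool is assumed to vary like the fetal ones. Of the 49, 16 were higher and 4 lower in mothers, against 17.4% of 20863 genes higher and 18.5% lower. Without pools of 3 group 1, 9 of the 49 passed in all. Against the fetal pool of 6, which shares the slide with the mothers, the differences were 1.47 for Creld2, 1.36 for Derl3, 1.60 for Ero1lb and -0.90 for Sec61g, with the signs of the fit over all pools. The size changed for some genes. On this slide Creld2 was larger (1.35 over all pools), whereas Edem1 (0.79 against 1.31) and Manf (0.48 against 0.73) were smaller. Markers of blood-forming cells differed beside these levels: 11 of 12 B lineage, 11 of 11 granulocyte and 9 of 9 erythroid markers were lower in mothers, and the summed granulocyte level was 3860 in the maternal control pool, against 395089 to 410908 in the fetal ones. In the maternal control pool the B lineage markers Ebf1 and Pax5, the plasma cell marker Irf4 and the granulocyte markers Elane, Ngp, Camp and Cxcr2 were not well above background on either array. The part of these cells in the level differences was not tested.

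Most of the genes higher in mothers were chaperones and degradation genes. Of the 11 chaperones 7 were higher: Creld2 had 14.4 in the maternal control pool and 12.9, 13.1 and 13.1 in the fetal ones, a difference of 1.35 ± 0.41 (95% interval, adjusted p = 0.003224). Sdf2l1, which works with the cochaperone Dnajb11 in the BiP cycle, differed by 1.17 (2.25-fold) and Hyou1, the nucleotide exchange factor of BiP, by 1.07 (2.10-fold). Hspa5 had 15.6 in the maternal pool and 15.3, 14.9 and 14.9 in the fetal ones, a difference of 0.63 that did not pass. Of the 9 degradation genes 4 were higher: Derl3 by 1.49 (2.81-fold, adjusted p = 0.002465), Sel1l by 1.32, Edem1 by 1.31 and Syvn1 by 0.76. Ero1lb, the oxidase most abundant in pancreas, had 11.6 in the maternal pool and 10.0, 9.27 and 9.22 in the fetal pools, a difference of 2.13 ± 0.93 or 4.38-fold (adjusted p = 0.00998). Its paralog Ero1l had 9.14 in the maternal pool and 10.8, 10.0 and 9.98 in the fetal pools, and this difference of -1.10 did not pass. Sec24d (1.06) and Sec23b (0.65) were higher in mothers, as were Atf6 (0.79) and Wfs1 (0.89).

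The 4 genes lower in mothers all belong to the entry and glycosylation machinery. Sec61g, the smallest channel subunit, had 14.3 in the maternal pool and 15.2, 15.6 and 15.8 in the fetal ones (difference -1.23, adjusted p = 0.01958). Ssr2 differed by -0.88 (adjusted p = 0.00831), Ddost by -0.74 and Rpn1 by -0.65. In this limma fit none of the 24 chaperone, degradation and transport genes was lower in mothers, also at an unadjusted p under 0.05, and none of the 13 translocon and oligosaccharyltransferase genes was higher, with 1 higher at an unadjusted p under 0.05.

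**Figure D4:**
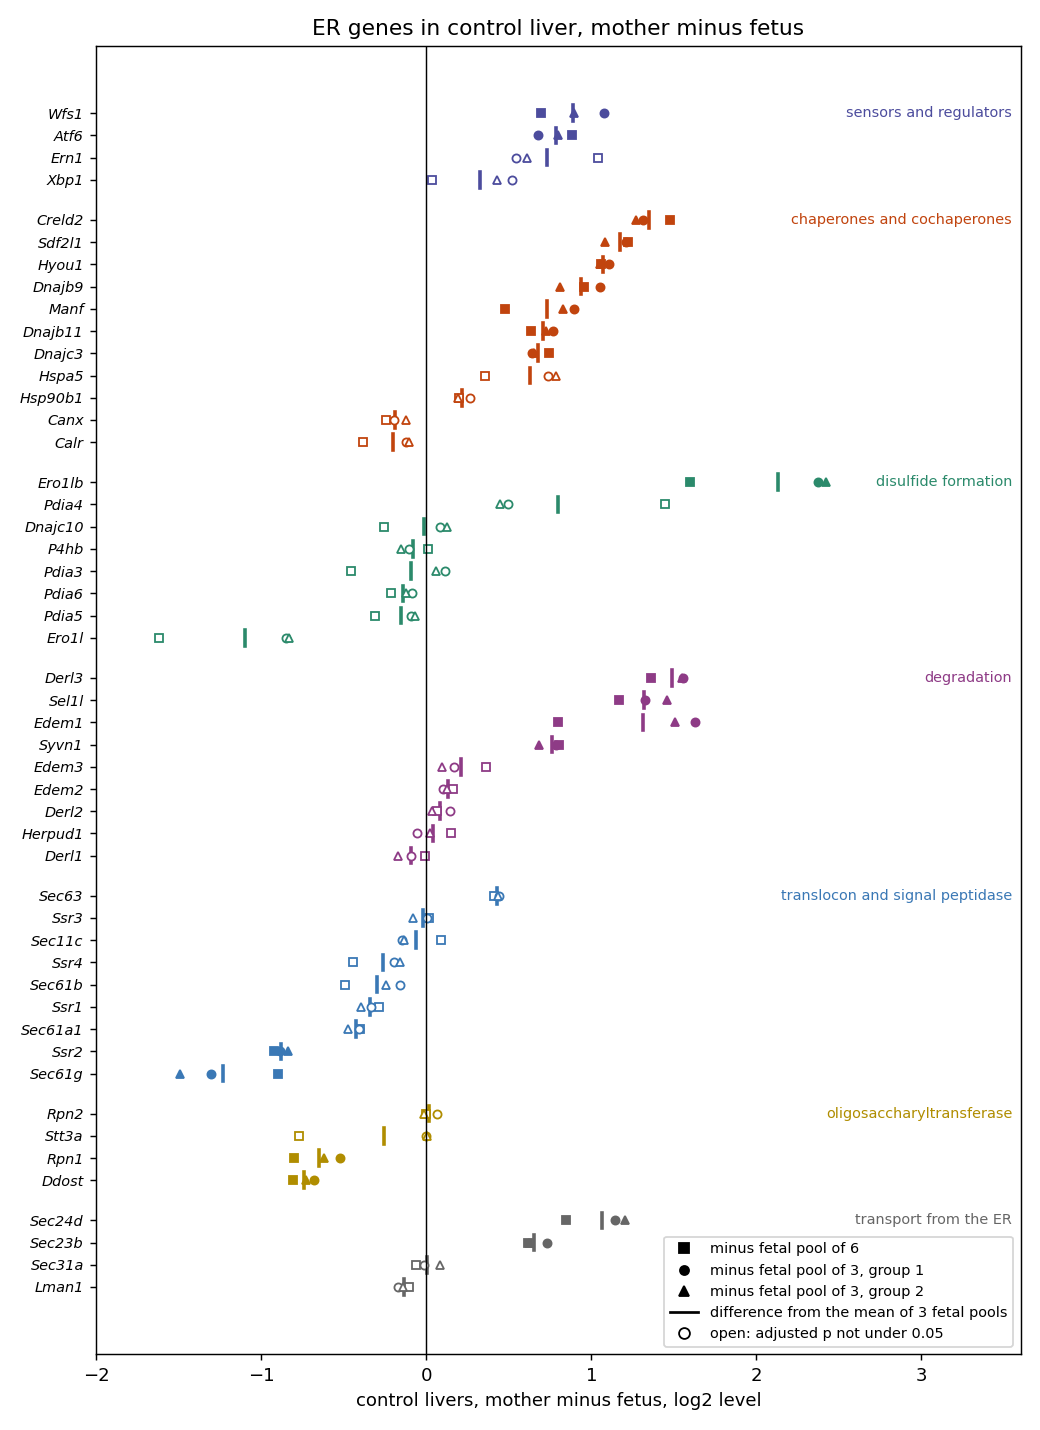
Difference in log2 level between the maternal control pool and each fetal control pool for the 49 ER genes, by role. Filled symbols mark an adjusted p under 0.05. Chaperone and degradation genes extend to the right, and translocon and oligosaccharyltransferase genes lie mostly left of 0.

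The genes with an ERSE match did not all move one way. Of the 10, 6 fell in fetuses (Calr, Creld2, Hsp90b1, Hspa5, Pdia6 and Syvn1) and 2 rose (Canx and Derl3), with a median of -0.33. Of the 28 genes with a window and no match, 10 fell and 1 rose, with a median of -0.17. Among all genes 14.2% fell and 11.3% rose. Canx rose by its brightest probe only, and its other probes gave -0.50 and -0.28. Dnajc10, the 1 gene that rose without a match, also had probes on both sides of 0. The second, far dimmer Syvn1 probe gave -0.0004 in fetuses and -0.0045 in mothers. In mothers the medians were -0.14 with an ERSE match and -0.03 with no match. In mothers 3 of the 4 genes lower by 1.5-fold on both arrays, Creld2, Hspa5 and Syvn1, held an ERSE. The 1 gene higher, Herpud1, held an ERSE-II. By this rule 3.88% of all genes were lower and 3% higher. The difference between genes with and without a match was not tested.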

How the data were processed

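Liver RNA of FR and control pools was measured on 8 two-colour Agilent mouse 44K arrays on 2 slides. The scanner output gives Cy3 and Cy5 intensity for each spot and its local background, per the file headers. Feature Extraction 9.5.3.1 (mm9 annotation) was used for slide 1 and 11.0.1.1 (mm8) for slide 2, whose files give the spot median and not the mean, and the submitters' processing notes name 9.5.3.1. The deposited value table holds log10 ratios of Cy5 over Cy3, matching log10 of processed red over green to within 5e-08, with array medians from -0.0218 to 0.0126. It is not turned for the dye exchange and was not tested. Flags of 0 or 1 came with each spot as other scanner output per the file headers.

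With R 4.3.3, limma 3.58.1, data.table (version 1.17.8) and jsonlite 2.0.0, background was corrected by normexp (offset 50) and each array normalized by loess, in which control spots had no weight. Ratios were turned to log2 of FR over control, where the deposited ones are log10. Population outlier spots were left out, and saturated and non-uniform spots were kept. Both dye orientations of a pool pair were averaged and counted as 1 replicate. Probes entered a comparison where the channel of FR or that of control was flagged as well above background on each of its arrays, and a gene was read from its brightest such probe. The fetal mean, the maternal minus fetal difference and control levels (Aquantile between arrays) were fitted with limma over all genes, with Benjamini-Hochberg adjustment and a threshold of 0.05. The fits were tested on simulated data. Raw medians were 69 to 284 in Cy3 and 122 to 310 in Cy5, over backgrounds of 46 to 68, and the number of arrays limits the precision. Probe names were matched to current symbols for 32817 of 41174 probes, and the others kept the array's name. Promoter windows are RefSeq's.

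The members, their roles and the other lists were chosen with earlier results of these data known. All 49 may be named. Values per pool pair are given for up to 5 members of each role with the largest fetal ratio and for Xbp1, Hspa5, Dnajb9, Edem1, Pdia6, Derl3, Sec24d and Creld2. Those of Sec61a1, Sec63, Pdia4, Sel1l and Herpud1 were added after their values were seen. From other lists up to 4 called genes are named. The array descriptions mention another organism and tissue and call the dye-exchanged arrays another pool. Here the titles decided which arrays make up a pool pair. Alternatives tried were a normexp offset of 10, processed signals, median centring, scaling, the spot and probe rules, the slide as a block and leaving out each fetal pool pair.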

Additional observations from a re-analysis of the deposited data

Results flagged for a closer look

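Creld2 and Canx passed the test of the difference between the maternal and the fetal response, but neither did with the slide as a block (adjusted p = 0.255 for Creld2 and 0.229 for Canx), with median centring (0.256 and 0.578) or with scaling between arrays (0.109 and 0.2). Creld2 had -1.36 in mothers and -0.36 in fetuses, a difference of -0.99 in the log2 ratio of FR over control (adjusted p = 0.0429), and the maternal ratio was lower than that of each of the 3 fetal pool pairs. Canx had -0.25 in mothers and 0.42 in fetuses, a difference of -0.68 (adjusted p = 0.029), from a probe whose fetal direction was opposite to that of the other Canx probes; averaged over its probes, Canx differed by -0.07. The adjusted p-values assume that the lone maternal pair varies like the fetal pairs. With 1 maternal pool pair and 3 fetal ones, no group had enough independent samples to look for a single outlying pool.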

How the results depend on the processing

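Over the named single-gene values and the alternatives, 303 of 443 counted as unchanged, 118 kept direction but lost the call, 6 gained it, 9 maternal ratios moved and 7 reversed. For tested values, unchanged means the same direction and side of the threshold. Maternal ratios and differences on slide 1 alone have no threshold. The 34 fetal values of slide 2 only equal those without the pools of 6, so they entered this total under both settings. Of those that reversed, Canx had -0.28 without non-uniform spots and -0.12 as the mean of all probes. Stt3a had -0.025 with median centring, -0.77 without non-uniform spots and -0.42 as the mean of probes. Rpn1 had 0.18 without non-uniform spots, and Ssr1 -0.21 as the mean of probes. Without non-uniform spots, Canx, Stt3a and Rpn1 were read from another, dimmer probe, which gave the same value in the main setting. That Rpn1 probe had a mean log2 intensity of 6.67, against 14.5 for the brightest. With median centring in place of loess, 2976 genes were called in fetuses instead of 5392, 1 member was higher, 0 passed 1.5-fold in mothers and 0 differed between mothers and fetuses (10 at an unadjusted p under 0.05). With scaling between arrays, 0 genes were called in fetuses (7241 at an unadjusted p under 0.05), hence 0 members lower and 0 higher, and 0 differed (11 at an unadjusted p). Without non-uniform spots 3146 genes, 8 members lower and 2 higher were called, over 21 members still measured, 1 passed in mothers and 0 differed (4 at an unadjusted p). With the slide as a block 2983 genes and 2 members higher were called, and 0 differed (11 at an unadjusted p). On slide 2 only, which leaves out the pools of 6, 0 genes were called (6161 at an unadjusted p), hence 0 members lower and 0 higher. Processed signals gave 2 members past 1.5-fold in mothers, and the mean of both maternal arrays gave 8. Leaving out 1 fetal pool pair gave 0 to 5205 genes, 0 to 17 members lower, 0 to 4 higher, 0 to 5 differing and 9 to 28 with a different control level; the lowest counts of calls came without the pools of 6, and for control levels without pools of 3 group 1. All counts are limma's, and the cause of these changes was not tested. The numbers of arrays and pools, and 1 probe for 22 of 49 members, limit what can be told. No paired analysis was possible because each ratio already pairs an FR pool with the control pool on its array.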
